A study of Mus musculus with 12 samples.

Results

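The transcripts of calcium-binding and membrane-associated proteins were followed in regulatory T cells (Tregs): the S100 genes S100a4, S100a6, S100a10 and S100a11, the annexin genes Anxa1 and Anxa2, the galectin genes Lgals1 and Lgals3, and the cytoskeletal genes Vim and Capg. These 10 genes were taken by symbol from tables that listed 24417 genes, and all 10 passed the filter on low values in every comparison. The series asked how Tregs with a high affinity insulin-specific T cell receptor (TCR), 4-8, differ from Tregs with a low affinity one, 12-4.4m1. The cells were sorted from the pancreatic islets and the spleen of NOD mice, a strain that develops autoimmune diabetes, at 6.8 weeks of age. All animals were 2-TCR retrogenic mice, in which T cells develop from bone marrow given TCR genes by retrovirus, so every group carries introduced receptors. There were 3 libraries in each of 4 groups, 12 in all: islet 4-8, islet 12-4.4m1, spleen 4-8 and spleen 12-4.4m1. Each affinity is represented by 1 receptor, so affinity and any other property of the receptor cannot be told apart. It is not stated in the labels if each library is a mouse of its own, and the p-values below therefore measure the spread between these libraries, which may be technical.

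Most S100 proteins are small calcium sensors of the EF-hand family that work as dimers and bind target proteins when calcium rises. Annexins bind acidic phospholipids of membranes in a calcium-dependent way, and an S100A10 dimer joins annexin A2 in a stable heterotetramer that links membranes to the actin cortex and binds plasminogen at the cell surface. Galectins bind beta-galactosides on cell surface glycoproteins. In T cells, transcripts of these families, together with the intermediate filament vimentin (Vim) and the actin filament capping protein CapG (Capg), are known to be higher in effector and memory cells than in naive cells.

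The stretches just before the transcription start of Anxa2, S100a4 and S100a11 are shown because Anxa2 was the member that differed between the TCRs in islets, S100a4 was lower in islets than in spleen for both TCRs, and S100a11 shares its motifs with Anxa2 and passed no test. Each holds the 250 bases upstream of the RefSeq start on GRCm38.p6, plus strand, at chr9:69453433-69453682 for Anxa2, chr3:90603520-90603769 for S100a4 and chr3:93520246-93520495 for S100a11. Capitals mark matches to the AP-1 motif TGANTCA and to the GC box GGGCGG.
Anxa2 promoter: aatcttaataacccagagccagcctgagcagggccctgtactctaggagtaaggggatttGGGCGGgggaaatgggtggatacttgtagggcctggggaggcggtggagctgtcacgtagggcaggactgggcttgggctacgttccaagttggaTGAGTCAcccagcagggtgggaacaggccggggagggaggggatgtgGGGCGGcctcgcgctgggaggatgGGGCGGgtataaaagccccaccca
S100a4 promoter: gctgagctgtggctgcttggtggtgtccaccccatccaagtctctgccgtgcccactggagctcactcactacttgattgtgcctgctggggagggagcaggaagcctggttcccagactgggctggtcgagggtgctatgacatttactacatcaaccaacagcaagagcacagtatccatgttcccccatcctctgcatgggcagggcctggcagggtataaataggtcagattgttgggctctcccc
S100a11 promoter: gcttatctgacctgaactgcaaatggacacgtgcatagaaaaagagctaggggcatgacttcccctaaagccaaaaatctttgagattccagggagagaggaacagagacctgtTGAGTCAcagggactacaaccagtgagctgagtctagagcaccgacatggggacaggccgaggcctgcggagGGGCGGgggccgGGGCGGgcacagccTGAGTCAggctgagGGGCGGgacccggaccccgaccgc
RefSeq promoter windows were found for 8 of the 10 genes, all but S100a10 and Lgals1. Both strands were searched, and no AP-1 match overlaps a GC box. TGANTCA occurred in 2 of the 8, once in Anxa2 at 95 bases upstream of the start and at 136 and 38 bases upstream in S100a11. It occurred in 6.75% of 32851 promoter windows of this length. GGGCGG occurred in 3 of the 8, with 3 matches each in Anxa2 and S100a11 and 1 in Lgals3, and in 32.7% of all windows. A kappaB-like motif (GGG, 2 free bases, TT, 1 free base, CC) matched once in Vim and in no other of the 8, and in 4.11% of all windows. The loose CArG-like motif (CC and GG spaced by 6 free bases), which occurred in 67.1% of all windows, was absent from Capg among the 8; it overlaps the kappaB match in Vim and 2 GC boxes in S100a11. These matches describe letters in the windows, and no binding was measured.

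On GRCm38, 4 of the genes lie on chromosome 3, as S100 genes are clustered in mammals: S100a4 at 90603771 to 90606045, S100a6 at 90612882 to 90624181, S100a11 at 93520488 to 93526287 and S100a10 at 93555080 to 93564643. Anxa1 is on chromosome 19 at 20373428 to 20390944 and Anxa2 on chromosome 9 at 69453620 to 69491795. Lgals1 is on chromosome 15 at 78926725 to 78930465, Lgals3 on chromosome 14 at 47367751 to 47386160, Vim on chromosome 2 at 13573927 to 13582826 and Capg on chromosome 6 at 72544391 to 72562983. All 10 are annotated as protein-coding. Some counts may be shared with other annotations, since the use of strand in counting is not given in the sources used here. Anxa2 overlaps Mir3109 on its own strand and Gm16144 on the other, S100a4 overlaps Gm42674 on its own strand, and Anxa1 overlaps 1500015L24Rik on the other. S100a11 and Lgals1 have annotated pseudogenes.

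The authors' deposited tables give levels on 2 scales. The first is the regularized log (rlog), a log2 value per library that shrinks low counts towards the gene's mean and is comparable within a table of 6 libraries. The second is FPKM, fragments normalised for transcript length and library size, as 1 value per group with no replicate spread. Differences below are differences of mean rlog values, 4-8 minus 12-4.4m1 or islets minus spleen, with the standard error (SE) from limma. A gene is called where limma's adjusted p over all genes tested was at most 0.05. Genes with a mean normalized count of at least 10 were tested. The TCR comparisons tested 8212 genes in islets and 9108 in spleen, and the tissue comparisons tested 8981 for 4-8 and 8438 for 12-4.4m1. The median SE over all genes was 0.193, 0.123, 0.181 and 0.187 in these comparisons, in that order, and libraries of a group correlated at 0.96 to 0.99 across genes. The comparisons share libraries. Islet 4-8 replicate 3 could be matched to a column of the 4-8 tissue table alone. An islet 4-8 column with no matching title is in the islet TCR table alone, and each other library is in 2 tables. The unnumbered column may be replicate 3. In the islet TCR table it was 8.81 for Anxa2, against 8.60 and 9.07 in replicates 1 and 2. Replicate 3 was 9.36 in the 4-8 tissue table, against 9.16 and 9.60. Likewise S100a11 was 7.20, against 6.89 and 6.72, and 7.79, against 7.48 and 7.29. Their identity was not tested. The depth of a library cannot be read from rlog values.

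By FPKM in the authors' deposited tables, which allow levels to be compared between genes of different length, Lgals1, S100a10, S100a4 and S100a6 were the most abundant of the 10 in every group. They made up 85.4% of the summed FPKM of the 10 genes in islet 4-8, 85.4% in islet 12-4.4m1, 90.7% in spleen 4-8 and 90.0% in spleen 12-4.4m1. In both islet groups Lgals1, the transcript of galectin-1, was first, at 5294 FPKM in islet 4-8 and 4322 in islet 12-4.4m1, against 3590 in spleen 4-8 and 3385 in spleen 12-4.4m1. S100a10, which encodes the annexin A2 partner p11, stood first in spleen 4-8 (6343 FPKM) and S100a4, known to bind nonmuscle myosin IIA, stood first in spleen 12-4.4m1 (7292 FPKM). Vim and S100a11 followed in every group, between 664 and 1097 FPKM. Anxa2, Capg and Lgals3 were between 64.3 and 456 FPKM. Anxa1 was lowest in every group, at 7.0 FPKM in islet 4-8, 16 in islet 12-4.4m1, 8.79 in spleen 4-8 and 32.9 in spleen 12-4.4m1. With no replicate spread in FPKM, neighbours in this order cannot be separated by a test.

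**Figure D1:**
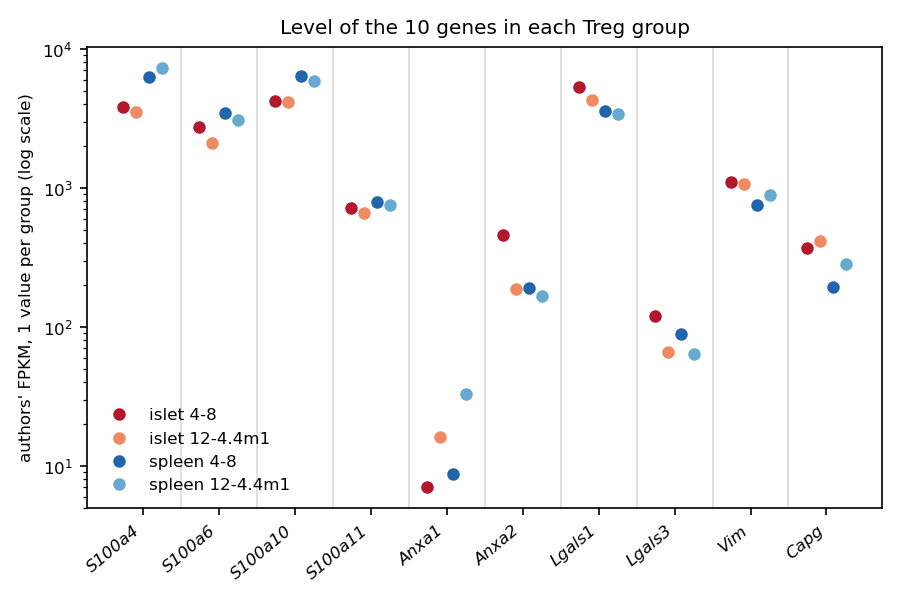
Level of each gene in the 4 Treg groups, as the authors' FPKM (1 value per group, from the tissue tables, log axis, no error given). Lgals1, S100a10, S100a4 and S100a6 each have 2096 FPKM or more in all 4 groups and Anxa1 has 32.9 or less.

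In islets, Anxa2 was the member called between the TCRs, higher in 4-8, and the other 9 members did not pass the test. Anxa2 encodes annexin A2, which organises membrane domains and the cortical actin under them. Since whole sorted populations were measured, fewer cells that express a gene and less RNA per cell cannot be told apart. Its rlog values were 8.60 and 9.07 in islet 4-8 replicates 1 and 2 and 8.81 in the unnumbered islet 4-8 library, against 7.73, 7.56 and 8.25 in islet 12-4.4m1 replicates 1 to 3. The lowest 4-8 library lay above the highest 12-4.4m1 library. The means were 8.83 ± 0.24 in 4-8 and 7.85 ± 0.36 in 12-4.4m1 (SD, n = 3 each), a difference of 0.98 ± 0.20 SE or 1.97-fold (limma adjusted p = 0.0163). It was the 19th smallest p among the 8212 genes. In the authors' deposited table the FPKM was 443 in 4-8 and 179 in 12-4.4m1, a 2.47-fold difference, with a Cuffdiff q of 0.00991. The authors' deposited DESeq2 table gave a log2 fold change of 1.11 with an adjusted p of 0.00655. Islet 12-4.4m1 replicate 3 lay nearest to the 4-8 group. The call held in 3 of 6 fits that left out a library. The limma adjusted p was 0.0542 without islet 4-8 replicate 2, 0.207 without islet 12-4.4m1 replicate 1 and 0.347 without islet 12-4.4m1 replicate 2, with differences of 0.86, 0.92 and 0.84. Dissociation stress genes, a list of 12 early response and heat shock genes, moved with the TCR in islets in the opposite direction: their summed level, as 2 to the power of the rlog value, was 6251 to 7215 in islet 4-8 and 7497 to 9133 in islet 12-4.4m1. Of the 12, limma called 0, 8 had an unadjusted p under 0.05, and the authors' deposited DESeq2 and Cuffdiff tables called 2 each. Their part in the Anxa2 difference was not tested.

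Set against the background, 1 of 10 members was called in islets, and 0.365% of all genes tested were called. Of these genes 0.353% were called in the authors' deposited DESeq2 table, and 0.945% in their Cuffdiff table, where the share is of the genes that Cuffdiff tested, here and below. Each table called 1 member, Anxa2. Groups that did not overlap were found for 2 members, Anxa2 and Lgals3, against 11.9% of all genes. With 10 genes, the count rests on Anxa2 alone. The median difference of the 10 was 0.06, against -0.00 over all genes tested.

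The closest to Anxa2 in size in islets was Lgals3, which encodes galectin-3, the galectin with a collagen-like tail that lets it form oligomers. It was 6.65, 7.26 and 6.63 in islet 4-8, against 6.44, 6.17 and 6.50 in islet 12-4.4m1. The groups did not overlap, but the difference of 0.48 ± 0.20 SE had a limma adjusted p of 0.618. S100a10 had the least spread of the 10, with 10.77, 10.74 and 10.76 in islet 4-8 and 10.71, 10.76 and 10.78 in islet 12-4.4m1. Its difference was 0.00, with a 95% interval of -0.33 to 0.34. The ratio of S100a10 to Anxa2 FPKM was 9.30 in islet 4-8 and 22.3 in islet 12-4.4m1, and 33.0 in spleen 4-8 and 35.0 in spleen 12-4.4m1 in the spleen table. No test was made of these ratios, which have 1 value per group.

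Of the remaining members in islets, S100a6, whose protein binds calcyclin-binding protein, differed by 0.30 (95% interval -0.08 to 0.69) and Lgals1 by 0.26 (-0.12 to 0.64). S100a4 differed by 0.06 (-0.34 to 0.46), S100a11 by 0.01 (-0.39 to 0.42), Vim by 0.06 (-0.32 to 0.43), Capg by -0.10 (-0.51 to 0.30) and Anxa1 by -0.25 (-0.60 to 0.11). Their limma adjusted p were 0.807 and above. Islet 4-8 replicate 1 was the lowest of the 3 for S100a4 (9.51) and S100a6 (9.99), and islet 4-8 replicate 2 the highest (10.33 and 10.64). Islet 12-4.4m1 replicate 3 was the highest of its group for Lgals1 (11.63, the others 10.99 and 10.90), for Vim (the others 10.52 and 10.38), for Capg (9.0, the others 8.39 and 8.55) and for Anxa2.

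That library differs from the other 2 of its group in the style of its title: islet 12-4.4m1 replicates 1 and 2 and islet 4-8 replicate 2 have the word Treg in their titles, and the other islet libraries and all spleen libraries do not. The labels do not say what this marks. In islet 4-8 the Treg-titled library had Anxa2 at 9.07, against a mean of 8.71 in the others, and in islet 12-4.4m1 the Treg-titled libraries averaged 7.64, against 8.25. Within either style, Anxa2 was higher in 4-8. With title style as a covariate, Anxa2 remained called in islets.

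**Figure D2:**
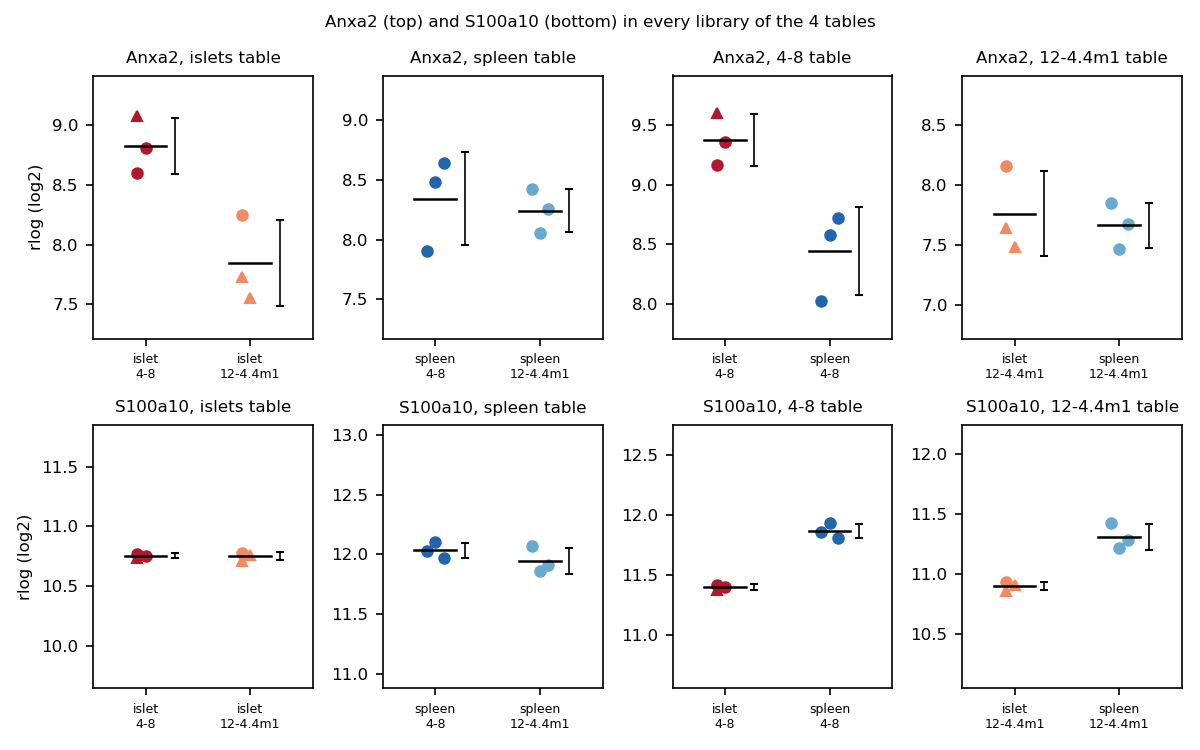
rlog value (log2) of Anxa2 (top) and S100a10 (bottom) in each library of the 4 tables; circles and triangles are libraries without and with the word Treg in their title, horizontal lines are group means, bars are 1 SD (n = 3), and every panel spans the same height. Anxa2 separates islet 4-8 from both islet 12-4.4m1 and spleen 4-8, while S100a10 overlaps between the TCRs in islets and lies lower in islets than in spleen for both TCRs.

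In spleen, none of the 10 members was called between the TCRs by limma. Anxa1 and Capg had an unadjusted p under 0.05, the authors' deposited DESeq2 table called 0 members, and their Cuffdiff table called 1, Anxa1. Of all genes tested in spleen, 0.428% were called by limma, 0.231% in the authors' deposited DESeq2 table and 1.15% in their Cuffdiff table. The groups did not overlap for 1 member, Capg, and for 13.3% of all genes. The median difference of the 10 was 0.03, against -0.00 over all genes.

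Anxa1 encodes annexin A1, a mediator of glucocorticoid effects that signals through formyl peptide receptors. Its rlog values were 4.79, 4.67 and 4.60 in spleen 4-8, against 5.61, 5.53 and 4.78 in spleen 12-4.4m1. Spleen 12-4.4m1 replicate 3 lay inside the 4-8 range, and the other 2 lay above it. The difference was -0.62 ± 0.15 SE (limma adjusted p = 0.0758). Without spleen 12-4.4m1 replicate 3 it was -0.88 (limma adjusted p = 0.000214). It was also called without a filter on low values (limma adjusted p = 0.0322). The authors' deposited table gave 9.16 FPKM in 4-8 and 34.2 in 12-4.4m1, with a Cuffdiff q of 0.0143, and the authors' deposited DESeq2 adjusted p was 0.205. With a mean normalized count of 37.9 over the 6 libraries, Anxa1 was the least abundant member. Its FPKM differed 3.73-fold between the groups and its rlog values 1.53-fold.

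Capg, whose protein caps the barbed ends of actin filaments, was 8.32, 8.48 and 8.27 in spleen 4-8, against 8.70, 8.65 and 8.90 in spleen 12-4.4m1. All 4-8 libraries lay below all 12-4.4m1 libraries, with a difference of -0.40 ± 0.12 SE (limma adjusted p = 0.223). Anxa2 in spleen was 7.90, 8.48 and 8.64 in 4-8, against 8.42, 8.05 and 8.25 in 12-4.4m1, so the groups overlapped, with a difference of 0.10 (95% interval -0.21 to 0.41). The upper end of this interval lies below the lower end for Anxa2 in islets, 0.57. The difference between the islet and the spleen effect was not tested, since the tables were normalized separately. The other 7 members in spleen differed by between -0.20 (Vim) and 0.29 (Lgals3), with limma adjusted p of 0.661 and above.

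**Figure D3:**
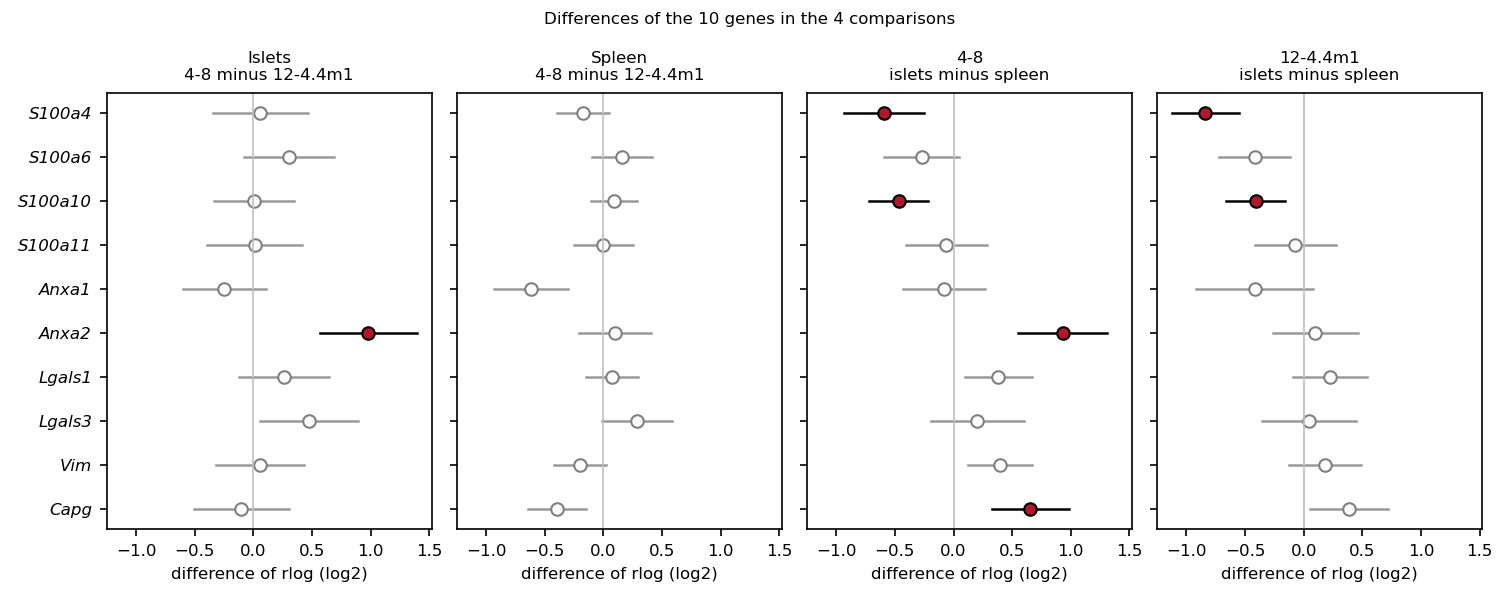
Difference of mean rlog (log2) for the 10 genes in the 4 comparisons, with its 95% interval from limma (3 against 3 libraries); filled red points passed an adjusted p of 0.05. Anxa2 lies to the right of 0 in islets between the TCRs and in 4-8 between the tissues, and S100a4 and S100a10 lie to the left of 0 in both tissue comparisons.

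Between islets and spleen the members moved in both directions. S100a4 and S100a10 fell in islets for both TCRs, and Anxa2 and Capg rose in islets for 4-8. Dissociation stress genes and genes of acinar cells also moved with tissue: 11 of 11 stress genes tested in 4-8 and 12 of 12 in 12-4.4m1 were higher in islets, with median differences of 2.71 and 2.51, as were 5 of 7 acinar and duct genes tested in 4-8 and 6 of 7 in 12-4.4m1. The summed level of the stress genes was 6866 to 8108 in islet 4-8 and 1990 to 2147 in spleen 4-8, and 6517 to 8008 in islet 12-4.4m1 and 1683 to 1916 in spleen 12-4.4m1. The summed level of the acinar and duct genes was 95.3 to 189 in islet 4-8 and 65.7 to 73.5 in spleen 4-8, and 172 to 230 in islet 12-4.4m1 and 80.0 to 89.8 in spleen 12-4.4m1. As summed FPKM in the authors' deposited tables, the acinar and duct genes stood at 334 in islet 4-8 and 13 in spleen 4-8, and at 564 in islet 12-4.4m1 and 10.5 in spleen 12-4.4m1, a wider gap than on the rlog scale, which shrinks low values. The part of both lists in the members' tissue differences was not tested. For 4-8, 4 of 10 members were called, 2 higher and 2 lower in islets, and 7.98% of all genes tested were called. In the authors' deposited tables, 6 members and 6.76% of genes were called by DESeq2, and 6 members and 15.7% by Cuffdiff. For 12-4.4m1, 2 of 10 were called, both lower in islets, and 6.81% of all genes were called. In the authors' deposited tables, 3 members and 4.72% of genes were called by DESeq2, and 4 members and 14.4% by Cuffdiff. Groups did not overlap for 6 members in 4-8 and 3 in 12-4.4m1, against 27.4% and 24.1% of all genes. The median difference was 0.07 in 4-8 and -0.01 in 12-4.4m1, against -0.01 and -0.00 over all genes.

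Among the S100 genes, S100a4 had the largest tissue difference of the 4. In 4-8 it was 10.23, 10.96 and 10.66 in islets, against 11.17, 11.17 and 11.30 in spleen. In 12-4.4m1 it was 10.23, 9.88 and 10.15 in islets, against 11.08, 10.99 and 10.71 in spleen. Every islet library lay below every spleen library of its TCR. The difference was -0.59 ± 0.16 SE in 4-8, 1.51-fold lower (limma adjusted p = 0.0296), and -0.84 ± 0.14 SE in 12-4.4m1, 1.79-fold lower (limma adjusted p = 0.000237). In the authors' deposited tables its FPKM was 3848 in islets and 6295 in spleen for 4-8, and 3508 in islets and 7292 in spleen for 12-4.4m1. For 12-4.4m1 the call held in all 6 fits that left out a library. For 4-8 it held in 2 of 6, with a limma adjusted p of 0.143 without islet replicate 1 and 0.109, 0.0887 and 0.145 without spleen replicates 1, 2 and 3.

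S100a10 had a narrower spread and a smaller difference. In 4-8 it was 11.42, 11.38 and 11.40 in islets, against 11.86, 11.93 and 11.81 in spleen, a difference of -0.47 ± 0.12 SE or 1.38-fold lower in islets (limma adjusted p = 0.0209). In 12-4.4m1 it was 10.86, 10.91 and 10.93 in islets, against 11.43, 11.22 and 11.28 in spleen, a difference of -0.41 ± 0.12 SE or 1.33-fold lower in islets (limma adjusted p = 0.0425). The tissues did not overlap for either TCR. Both calls lay near the threshold. For 4-8 the limma adjusted p was 0.0608 without islet replicate 1 and 0.106, 0.125 and 0.0930 without spleen replicates 1, 2 and 3. For 12-4.4m1 it was 0.0509 and 0.0906 without islet replicates 1 and 2 and 0.248, 0.102 and 0.119 without spleen replicates 1, 2 and 3. The difference itself stayed between -0.50 and -0.44 in 4-8 and between -0.45 and -0.35 in 12-4.4m1 in those fits.

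S100a6 was 10.67, 11.25 and 10.99 in islets, against 11.32, 11.34 and 11.07 in spleen, for 4-8, and the tissues overlapped (-0.27 ± 0.15 SE, limma adjusted p = 0.302). Without islet 4-8 replicate 2 the difference was -0.41 (limma adjusted p = 0.0433). In 12-4.4m1 it was 10.12, 9.98 and 10.33 in islets, against 10.90, 10.39 and 10.39 in spleen, without overlap (-0.42 ± 0.15 SE, limma adjusted p = 0.0934). Without islet 12-4.4m1 replicate 3 the difference was -0.51 (limma adjusted p = 0.0332), and the authors' deposited DESeq2 and Cuffdiff tables gave 0.0255 and 0.0166 for all libraries. S100a11, whose protein binds annexin A1, was 7.48, 7.29 and 7.79 in islets and 7.62, 7.63 and 7.49 in spleen for 4-8. It differed by -0.06 (95% interval -0.41 to 0.28) in 4-8 and by -0.07 (-0.42 to 0.28) in 12-4.4m1. The 3 abundant S100 genes thus had negative tissue differences in both TCRs, with 4 of these 6 differences called, while S100a11 was not called in either.

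Anxa2 had the largest tissue difference among the 10 members in 4-8. It was 9.16, 9.60 and 9.36 in islets, against 8.03, 8.58 and 8.72 in spleen, with no overlap. The difference was 0.93 ± 0.18 SE, 1.90-fold higher in islets (limma adjusted p = 0.00331), and the call held in all 6 fits that left out a library. In the authors' deposited table its FPKM was 456 in islets and 192 in spleen. In 12-4.4m1 Anxa2 was 7.64, 7.48 and 8.16 in islets, against 7.85, 7.47 and 7.68 in spleen. The tissues overlapped there, with a difference of 0.10 (95% interval -0.26 to 0.46, limma adjusted p = 0.821). Whether the tissue difference of Anxa2 differed between the TCRs was not tested. Islet 4-8 replicates 1 and 2 also enter the comparison of the TCRs in islets, whose unnumbered islet 4-8 library may be replicate 3. The 2 calls of Anxa2 therefore share libraries, perhaps all those of islet 4-8.

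Anxa1 was not called between tissues. It was 3.39, 3.64 and 3.72 in islets, against 3.75, 3.67 and 3.58 in spleen, for 4-8 (-0.08 ± 0.17 SE). In 12-4.4m1 it was 4.20, 4.94 and 4.40 in islets, against 5.31, 5.19 and 4.30 in spleen (-0.42 ± 0.24 SE, limma adjusted p = 0.354). Spleen 12-4.4m1 replicate 3 was again the low library of its group. The mean normalized count of Anxa1 was 12.7 in the 4-8 table and 30.2 in the 12-4.4m1 table, near the filter at 10, and the precision is correspondingly limited.

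The galectins were not called between tissues. Lgals1 was 11.82, 11.90 and 12.17 in islets, against 11.48, 11.77 and 11.50 in spleen, for 4-8, without overlap (0.38 ± 0.14 SE, limma adjusted p = 0.0981). Without islet 4-8 replicate 2 the difference was 0.41 (limma adjusted p = 0.0435), and the authors' deposited tables called it for all libraries (DESeq2 adjusted p 0.0376, Cuffdiff q 0.0233). In 12-4.4m1 Lgals1 was 11.03, 10.95 and 11.66 in islets, against 11.08, 11.05 and 10.83 in spleen (0.23 ± 0.15 SE, limma adjusted p = 0.444). Only islet replicate 3 stood above the spleen libraries there. Lgals3 differed by 0.20 (95% interval -0.19 to 0.60) in 4-8 and by 0.04 (-0.35 to 0.44) in 12-4.4m1. Lgals1 exceeded Lgals3 in FPKM by 44.0-fold in islet 4-8 and 65.8-fold in islet 12-4.4m1, and by 40.3-fold in spleen 4-8 and 52.7-fold in spleen 12-4.4m1.

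Of the cytoskeletal genes, Capg rose in islets for 4-8. It was 9.17, 8.69 and 9.06 in islets, against 8.29, 8.44 and 8.23 in spleen, with no overlap, a difference of 0.65 ± 0.16 SE or 1.57-fold (limma adjusted p = 0.0148). In the authors' deposited table its FPKM was 369 in islets and 193 in spleen. The limma adjusted p was 0.0742 without islet 4-8 replicate 1 and 0.0816 and 0.0930 without spleen 4-8 replicates 1 and 3. In 12-4.4m1 Capg was 8.44, 8.60 and 9.05 in islets, against 8.27, 8.20 and 8.48 in spleen, so islet replicate 1 fell inside the spleen range (0.38 ± 0.16 SE, limma adjusted p = 0.168). The authors' deposited Cuffdiff table called it there (q 0.0363), and their DESeq2 table did not (adjusted p 0.256).

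Vim was 11.15, 11.08 and 11.37 in islets, against 10.78, 10.87 and 10.76 in spleen, for 4-8. The tissues did not overlap (0.39 ± 0.13 SE, limma adjusted p = 0.0700). Without islet 4-8 replicate 2 the difference was 0.45 (limma adjusted p = 0.0153), and the authors' deposited tables called it for all libraries (DESeq2 adjusted p 0.0380, Cuffdiff q 0.0235). In 12-4.4m1 Vim was 10.59, 10.46 and 11.06 in islets, against 10.73, 10.46 and 10.38 in spleen (0.18 ± 0.15 SE, limma adjusted p = 0.554). As for Lgals1 and Capg, islet 12-4.4m1 replicate 3 was the highest library.

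**Figure D4:**
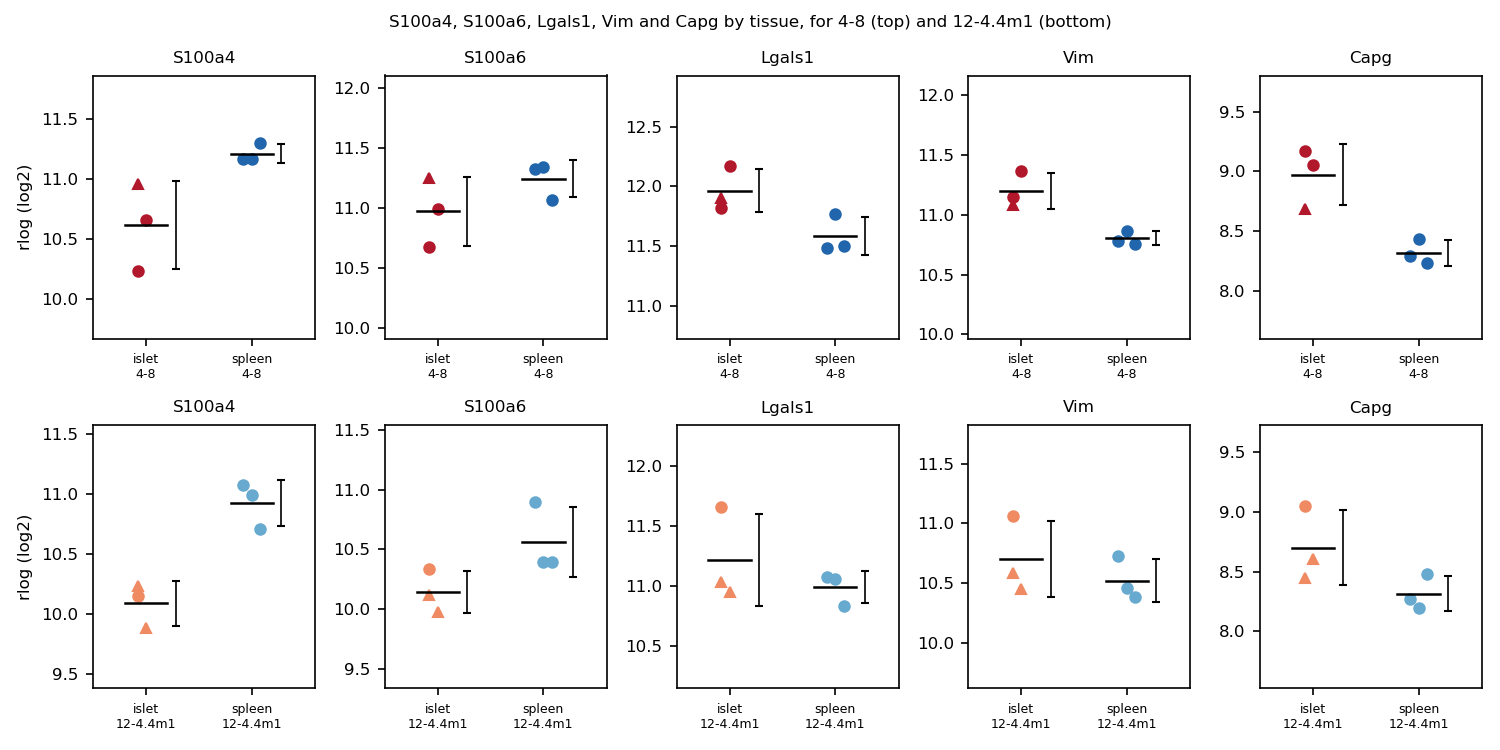
rlog value (log2) of S100a4, S100a6, Lgals1, Vim and Capg in islet and spleen libraries, for 4-8 (top) and 12-4.4m1 (bottom); circles and triangles are libraries without and with the word Treg in their title, horizontal lines are group means and bars are 1 SD (n = 3). S100a4 is lower in every islet library for both TCRs, and islet 12-4.4m1 replicate 3 (circle) is the highest library of its panel for Lgals1, Vim and Capg.

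The members varied together in part. Across the 24 library columns of the 4 tables, most of which hold a library used in 2 tables, with values centred per table, Lgals1 and Vim correlated most closely (Pearson's r = 0.86), followed by Vim and Capg (0.73) and S100a4 and S100a6 (0.72). S100a4 and S100a10 correlated at 0.68, and S100a10 and Anxa2, whose proteins form a complex, at -0.37. S100a4 and Capg correlated at -0.66. These columns share libraries and tissue, so the values are descriptions. Some 7928 genes, members included, passed the filter in all tables. The non-members among them closest to the mean of the 10 were Vac14 (0.89), Egln1 (0.85), Ccdc58 (0.81), Chmp7 (0.81) and Asl (0.81). Of the members themselves, Lgals1 was closest to that mean (0.75) and S100a11 farthest (0.04).

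Relatives of the members were not called in any of the 4 comparisons, by limma or in the authors' deposited tables. At an unadjusted p under 0.05, 1 other annexin and 1 other galectin passed between tissues for 12-4.4m1, and 0 in the other comparisons. Of 14 other symbols beginning with S100, most were at or near 0, and between 1 and 3 were tested in each comparison. S100a13 was the one tested in islets and the most abundant, at 492 FPKM in islet 4-8 and 491 in islet 12-4.4m1, against 571 in spleen 4-8 and 541 in spleen 12-4.4m1. The neutrophil genes S100a8 and S100a9 were at 0 in the islet TCR table. Of 10 other annexins, 5 were tested in each comparison and none was called. Anxa6 was their most abundant member, at 289 FPKM in islet 4-8 and 328 in spleen 4-8, with a difference of -0.13 (limma adjusted p = 0.611). Of 7 other galectin symbols, which include the galectin-3-binding protein gene Lgals3bp, 3 or 4 were tested and none was called. Lgals9 differed by -0.03 between the tissues for 4-8 and by -0.36 for 12-4.4m1 (limma adjusted p = 0.268).

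Among 13 genes for binding partners and receptors of these proteins, 9 were tested in each comparison. Between the TCRs limma called 0, with 0 at an unadjusted p under 0.05 in islets and 2 in spleen, where the authors' deposited Cuffdiff table called 1. In 4-8, Plgrkt, a plasminogen receptor gene, averaged 6.50 ± 0.12 in islets, against 7.03 ± 0.05 in spleen (SD, n = 3 each; limma adjusted p = 0.0496). In 12-4.4m1, Myh9, the nonmuscle myosin IIA heavy chain that S100A4 binds, averaged 10.14 ± 0.14 in islets, against 9.48 ± 0.13 in spleen (SD, n = 3 each; limma adjusted p = 0.00253), in the opposite direction to S100a4. Spn, which encodes the galectin-1 ligand CD43, was lower in islets there by 0.49 (limma adjusted p = 0.0427). In 4-8, Myh9 and Spn differed in the same directions but were not called (0.46 and -0.45, limma adjusted p = 0.0576 and 0.0627). Ahnak, a scaffold bound by S100A10 and annexin A2, differed by -0.02 in 4-8 and -0.10 in 12-4.4m1 between tissues and was not called.

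Among 21 actin and filament regulators, limma called 0 between the TCRs, with 3 at an unadjusted p under 0.05 in islets and 0 in spleen, and the authors' deposited tables called 0. Between tissues 3 were called for 4-8 and 4 for 12-4.4m1. Actg1, cytoplasmic gamma actin, was higher in islets for both TCRs (0.64 in 4-8, limma adjusted p = 0.0186, and 0.48 in 12-4.4m1, limma adjusted p = 0.0345). The thymosin genes Tmsb4x and Tmsb10, whose proteins bind actin monomers, were lower in islets for 4-8 (-0.46, limma adjusted p = 0.0217, and -0.63, limma adjusted p = 0.0167). In 12-4.4m1, the actin monomer-binding profilin gene Pfn1 was higher in islets (0.47, limma adjusted p = 0.0357), and the capping protein subunit gene Capza2 (-0.89, limma adjusted p = 0.00141) and Crip1 (-0.53, limma adjusted p = 0.0267) were lower. Pfn1, Capza2 and Crip1 moved the same way in 4-8 but were not called. They differed there by 0.53, -0.39 and -0.35 (limma adjusted p = 0.0538, 0.133 and 0.208). The median difference was 0.01 over the 21 tested in 4-8 and 0.00 over the 20 tested in 12-4.4m1.

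Markers were read beside these results. All 8 markers of T cells and Tregs were present and tested in every comparison, and 0 were called between the TCRs by limma or in the authors' deposited tables, with 0 at an unadjusted p under 0.05. Between tissues 3 of the 8 were higher in islets for 4-8 and 2 for 12-4.4m1. Ctla4, an inhibitory receptor of Tregs, was higher by 2.03 in 4-8 (limma adjusted p = 1.52e-07) and by 2.21 in 12-4.4m1 (limma adjusted p = 2.23e-10). Cd4 was higher by 0.71 (limma adjusted p = 0.00655) and 0.86 (limma adjusted p = 0.000241), and Cd3e was called in 4-8 (0.52, limma adjusted p = 0.0309). Their part in the members' tissue differences was not tested. Between the TCRs in islets, 0 of 10 acinar and duct genes tested were called by limma or in the authors' deposited tables, and 2 had an unadjusted p under 0.05 (median difference -0.23). Myeloid cells also express Lgals3, Capg, Vim and Anxa2 strongly, so 10 myeloid markers were read. Their summed level, as 2 to the power of the rlog value, ranged over 600 to 661 in islet 4-8 and 553 to 624 in islet 12-4.4m1, over 924 to 1010 in islet 4-8 and 920 to 1073 in spleen 4-8, over 584 to 661 in islet 12-4.4m1 and 621 to 676 in spleen 12-4.4m1, and over 974.99 to 1144 in spleen 4-8 and 961 to 1038 in spleen 12-4.4m1. In the 4 comparisons 0 were called by limma or in the authors' deposited tables, with 0 at an unadjusted p under 0.05 except for 1 between the TCRs in spleen, Cd68, with a difference of 0.26 (limma adjusted p = 0.381). Most of that sum was Cst3 and Ctss. Only 2 of the 10 passed the filter on low values in the islet TCR table. Among those under it, some were higher in islet 4-8 by FPKM in the authors' deposited table: Cd68 stood at 9.06 in islet 4-8 and 0.612 in islet 12-4.4m1, Tyrobp at 6.53 and 1.39, and Itgam at 3.28 and 0.639, in the same order of groups. Lyz2 stood lower, at 4.21 in islet 4-8 and 6.81 in islet 12-4.4m1, as did Csf1r, at 0.111 and 0.531. Fcer1g, at 2.37 and 3.28, and Cd14, at 2.01 and 2.44, were also lower in islet 4-8. Adgre1 had no FPKM. The mean normalized counts of Cd68, Tyrobp, Itgam, Lyz2 and Csf1r were 9.38, 1.76, 7.97, 4.66 and 1.38. Those of Fcer1g and Cd14 were 1.54 and 3.03. The rlog values of Cd68 averaged 3.21 ± 0.23 in islet 4-8 and 2.76 ± 0.02 in islet 12-4.4m1 (SD, n = 3 each). The part of myeloid transcripts in the islet values of Anxa2 and Lgals3 was not tested. Xist also varied between libraries within groups, between 6.51 and 10.5 in islet 4-8 of that table, and Anxa2 kept its call there with Xist as a covariate.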

How the data were processed

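RNA-seq libraries were made, per the labels' protocols, by Triton X-100 lysis of sorted cells, reverse transcription, cDNA amplification and Nextera XT. Per the labels, the submitters' processing notes name DESeq, DESeq2 1.1.0, Cufflinks, STAR 1.1.0 and TopHat 1.0.0 and the build mm10 (GRCm38), without roles. The authors deposited 4 rlog tables on a log2 scale, DESeq2 tables with the mean normalized signal (size factor normalization), log2 fold change, p-value and adjusted p, and Cuffdiff tables with 1 FPKM per group and a q-value. The authors' log2 fold changes run 12-4.4m1 over 4-8 and spleen over islets, and were turned to match the text.

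limma 3.58.1 in R 4.3.3 (lmFit, eBayes with trend, no covariates) was fitted within each rlog table on all genes with a mean normalized count of at least 10, with Benjamini-Hochberg adjustment. It was also run on simulated data with normal noise of its own fitted spread. The changes planted there were larger than any member's difference in these fits, so smaller changes were not covered. With 3 libraries a group, no exact permutation p can be under 0.1. Columns were matched by title; 1 islet 4-8 column matches a group but no title number, and descriptions of spleen replicates 2 list the other TCR's tissue table. Alternatives were other filters, no trend, quantile normalization, replicate block, title style, leaving out libraries and the authors' tests; Xist as a covariate was added after seeing the data. Positions are from GENCODE, promoters from RefSeq. Apart from the 10 members, named genes are those called in a list (up to 4 per list and comparison), the 5 most like the members' mean, and a few relatives and markers named after their values were seen. The members and lists were chosen with earlier results of these data known.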

Additional observations from a re-analysis of the deposited data

How the results depend on the processing

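No member's difference changed sign while called. Over 40 member differences and their alternatives, 628 fits kept their side of the threshold, 23 passed newly and 25 no longer passed. Some of the 628 changed sign while not called. For example, S100a4 between the TCRs in islets ran between -0.13 and 0.28 on leaving out a library. Members called in islets between the TCRs were 1, and 0 to 1 on leaving out a library. In spleen they were 0, but 1 without a filter and 1 in the authors' Cuffdiff table, and 0 to 1 on leaving out a library. Between tissues they were 4 for 4-8 (2 without trend, 7 with title style, which in effect leaves out islet 4-8 replicate 2, 1 to 7 on leaving out a library) and 2 for 12-4.4m1 (1 without trend, 4 in the Cuffdiff table, 1 to 3 on leaving out a library). The causes were not tested.

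Over all genes, calls in islets numbered 30, but 15 at a count of at least 50, 52 with title style, 50 with Xist, 57 in the Cuffdiff table and 9 to 44 on leaving out a library. In spleen they numbered 39, but 17 without trend, 19 with Xist, 11 without both replicates 2, 21 in the DESeq2 table, 84 in the Cuffdiff table and 14 to 56 on leaving out a library. For tissue they numbered 717 in 4-8 (1212 with title style, 1142 in the Cuffdiff table, 306 to 1211 on leaving out a library) and 575 in 12-4.4m1 (922 and 288 to 610).

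Same-numbered libraries deviated together weakly or not at all: correlations ran between -0.118 and 0.127, and not every pair passed 0.1 in any table. Spleen alone had only positive values, 0.120, 0.0865 and 0.0748 for replicates 1 to 3. With the replicate block, spleen gave 78 genes and 1 member, Anxa1 (limma adjusted p = 0.00500). The block gave 1 member for 12-4.4m1 tissue, with S100a10 at 0.0550, and S100a10 in 4-8 was at 0.0694. Leaving aside the fits without trend or without a library and the authors' tests, 8 settings remained, the block included. S100a10 in 12-4.4m1 passed in 6 of them, with a limma adjusted p of up to 0.173. Of the columns of the islet TCR table, 1 matches no title, so the replicate block was fitted there, as a choice made after seeing the data, on the 4 libraries numbered 1 and 2 in both groups: it gave 53 genes and 1 member, Anxa2 (limma adjusted p = 0.000343). Precision is limited by 3 libraries a group, by rlog shrinkage of low counts, which touches Anxa1, and by depth, which is unknown.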
